A study of Rattus norvegicus with 3 samples.

Results

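The genes described here encode voltage-gated potassium channels and their auxiliary proteins. The rule that found them uses names alone and takes every row of the deposited expression tables whose symbol begins with Kcn followed by a family letter or letters of the voltage-gated pore families (a, b, c, d, q, h), of the modifier subunits (f, g, s, v) or of the auxiliary families (ab, ip, e), with 1 Kcne symbol set aside by the rule. This gave 49 of 30957 genes, in 10 families. No expression value enters the rule. The tissue was motor cortex from 3 male Sprague-Dawley rats, numbered 32, 39 and 68, all untreated and labelled with a time of 8 weeks, which the labels do not define as an age. All 3 belong to the only group, called normal, with 1 mRNA library per animal, so there is no treated group and no comparison between conditions. Differences between animals, dissections and libraries therefore cannot be told apart, and any spread given is the spread between these 3 libraries. Kcna3 and Kcnd2 were not analysed here, so shares of the Kv1 and Kv4 families are shares of the analysed members.

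Voltage-gated potassium channels open when the membrane depolarises and let potassium leave the cell, which ends the action potential and sets how fast and how regularly a neuron can fire. Each channel is built from pore subunits of one family, to which cytoplasmic or membrane-bound auxiliary proteins attach. In cortex the Kv1 channels sit mainly on axons, Kv2 on the cell body and proximal dendrites, Kv3 in fast-firing cells, Kv4 on dendrites, and Kv7 channels carry the slow M-current that muscarinic receptors suppress. Modifier subunits make no working channel alone and change the behaviour of Kv2 channels when they join them.

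Values are FPKM, a fragment count scaled by the length of the gene and the size of the library. At the depth recovered from the tables (16553088, 15462207 and 17664783 fragments in animals 32, 39 and 68), a gene at 1 FPKM rested on 16.6, 15.5 and 17.7 fragments per kilobase. The libraries were not alike in the levels of cell-type and tissue markers. Summed choroid plexus markers (7 genes, 2 of them at 1 FPKM or more in every animal) stood at 59.2, 699 and 8104 FPKM, oligodendrocyte markers (6 of 6) at 3124, 4809 and 8390, and striatal markers (6 of 7) at 124, 98.4 and 236, each highest in animal 68. Neuron markers (6 of 6) summed to 3494, 3060 and 2461 FPKM and interneuron markers (6 of 6) to 479, 429 and 288, each lowest in animal 68. Glutamatergic neuron markers (5 of 5) stood at 2303, 2284 and 1731, astrocyte markers (5 of 5) at 871, 843 and 1498, microglial markers (5 of 5) at 33.5, 54.4 and 80.8, endothelial markers (3 of 3 found) at 96.2, 84.6 and 76.1, ependymal markers (2 of 3 found) at 3.85, 6.52 and 15.9, and thalamic markers (5 of 5) at 28.8, 27.8 and 21.6. No marker found was listed at 0 in all 3 libraries. In bulk tissue, fewer cells of a type and less RNA per cell cannot be told apart.

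The upstream sequence of 5 members is shown because the results turn on them: Kcnab2 is the most abundant member, Kcnab3, Kcnf1 and Kcns1 showed the 3 largest deficits in animal 68 relative to animal 32, and Kcnip2 was higher in animals 39 and 68. Each is the 250 bases before the annotated start in RefSeq (build GRCr8), read 5′ to 3′ on the strand of the gene. The windows are chr5:168270761-168271010 on the minus strand for Kcnab2, chr10:54546388-54546637 on the plus strand for Kcnab3, chr6:45693707-45693956 on the minus strand for Kcnf1, chr3:173262347-173262596 on the minus strand for Kcns1 and chr1:254613899-254614148 on the minus strand for Kcnip2. Capitals mark the E-box CAGCTG and the GC box GGGCGG, searched on both strands.
Kcnab2: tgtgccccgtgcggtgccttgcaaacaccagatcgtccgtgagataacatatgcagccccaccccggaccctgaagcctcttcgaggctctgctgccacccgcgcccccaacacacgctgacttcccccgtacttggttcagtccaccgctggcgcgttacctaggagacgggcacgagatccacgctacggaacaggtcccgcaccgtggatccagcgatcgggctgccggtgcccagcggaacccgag
Kcnab3: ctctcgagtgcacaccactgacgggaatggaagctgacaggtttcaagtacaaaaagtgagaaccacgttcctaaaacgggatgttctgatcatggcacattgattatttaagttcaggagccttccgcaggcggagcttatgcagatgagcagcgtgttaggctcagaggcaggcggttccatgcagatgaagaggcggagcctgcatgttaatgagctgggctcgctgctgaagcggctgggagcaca
Kcnf1: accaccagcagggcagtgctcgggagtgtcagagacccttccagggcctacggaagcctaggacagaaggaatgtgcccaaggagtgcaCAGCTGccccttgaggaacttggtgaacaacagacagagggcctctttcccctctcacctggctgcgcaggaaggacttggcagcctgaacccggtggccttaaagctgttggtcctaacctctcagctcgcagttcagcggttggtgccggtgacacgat
Kcns1: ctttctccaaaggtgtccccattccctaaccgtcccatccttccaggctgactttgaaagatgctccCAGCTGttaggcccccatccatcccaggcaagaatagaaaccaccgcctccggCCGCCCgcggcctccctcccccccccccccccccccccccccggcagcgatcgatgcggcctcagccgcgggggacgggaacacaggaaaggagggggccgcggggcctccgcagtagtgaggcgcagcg
Kcnip2: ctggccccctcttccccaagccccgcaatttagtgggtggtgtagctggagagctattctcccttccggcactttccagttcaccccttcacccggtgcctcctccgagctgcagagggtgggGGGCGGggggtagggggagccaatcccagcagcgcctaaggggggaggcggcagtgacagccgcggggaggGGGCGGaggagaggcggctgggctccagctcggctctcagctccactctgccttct

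Kcnf1 and Kcns1 each held 1 CAGCTG, Kcns1 also held 1 GGGCGG, Kcnip2 held 2 GGGCGG, and the windows of Kcnab2 and Kcnab3 held neither motif. RefSeq windows were found for 33 of the 49 members. In the shares below, a member counted as holding a motif if any of its windows did, while the share of all was counted by window. Such shares are unlike in unit, and their differences were not tested. CAGCTG occurred in those of 10 members (30.3%) and in 11.97% of all 33469 windows, and GGGCGG in those of 19 members (57.6%) and in 30.5% of all. No member window held the TATA box TATAAA or the cyclic AMP response element TGACGTCA, which occurred in 12.9% and 1.59% of all windows, and CCAAT occurred in 6 members (18.2%) against 34.0%. The member windows were also richer in CpG dinucleotides, with a median of 12 against 5, so a match to letters that contain CG is a description of base composition as much as of a motif.

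Most members were detected. At least 1 FPKM was reached in all 3 animals by 38 of the 49 members, where 40.7% of all genes in the tables reached it. At 10 FPKM or more in every animal stood 18 of the 49 members and 6183 of all 30957 genes. The median member measured 8.20 ± 1.39 FPKM (SD, n = 3). Kcna10 and Kcne1 were listed at 0 in every library, as were the housekeeping genes Rpl8, Rps6 and Hprt1, so a listed 0 cannot be read as absence. In all, 41 members had a mean of at least 1 FPKM. Of the 8 below it, Kcna7, Kcng3, Kcnv2 and Kcne3 had means between 0.0862 and 0.119 FPKM, Kcnh8 had a mean of 0.380 and Kcnq1 of 0.328. RefSeq, in another build, places Kcng3 and Kcnh8 on the opposite strand from the tables, so what those models count is uncertain.

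**Figure D1:**
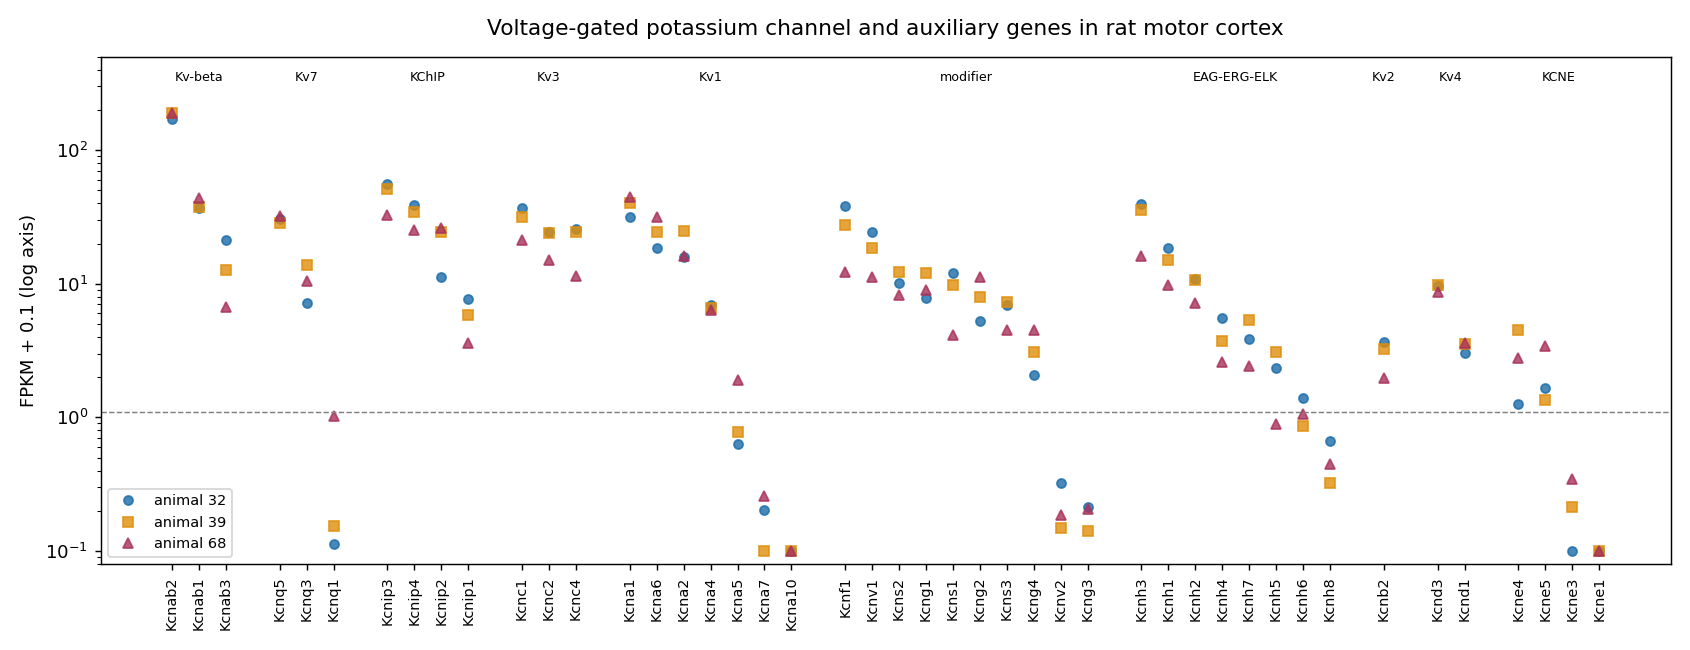
FPKM plus 0.1 on a log axis for 45 members, grouped by family and ordered by mean; each point is 1 library and the dashed line marks 1 FPKM. Kcnab2 stands above all others near 182 FPKM, while triangles (animal 68) lie below the other animals for every Kv3 gene shown.

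The auxiliary Kv-beta subunits held the largest share of the members' summed FPKM, 27.7 ± 2.99% (SD, n = 3), and most of this was 1 gene. They were followed by the Kv7 pores (13.1 ± 1.98%), the KChIP calcium sensors (12.3 ± 0.782%), Kv3 (12.2 ± 1.97%), Kv1 (10.6 ± 2.42%) and the modifier subunits (10.4 ± 1.82%). The EAG, ERG and ELK channels held 7.52 ± 2.10%, Kv2 4.22 ± 0.961%, Kv4 1.48 ± 0.0878% and the KCNE peptides 0.586 ± 0.257%. The shares of Kv7, KChIP, Kv3, Kv1 and modifier genes lay within a few percentage points of each other, and their order differed between animals. In animal 32 Kv3 held 14.0% and Kv1 8.24%, and in animal 68 Kv3 held 10.1% and Kv1 13.1%. Together the members made up 0.184, 0.193 and 0.168% of all FPKM in animals 32, 39 and 68.

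**Figure D2:**
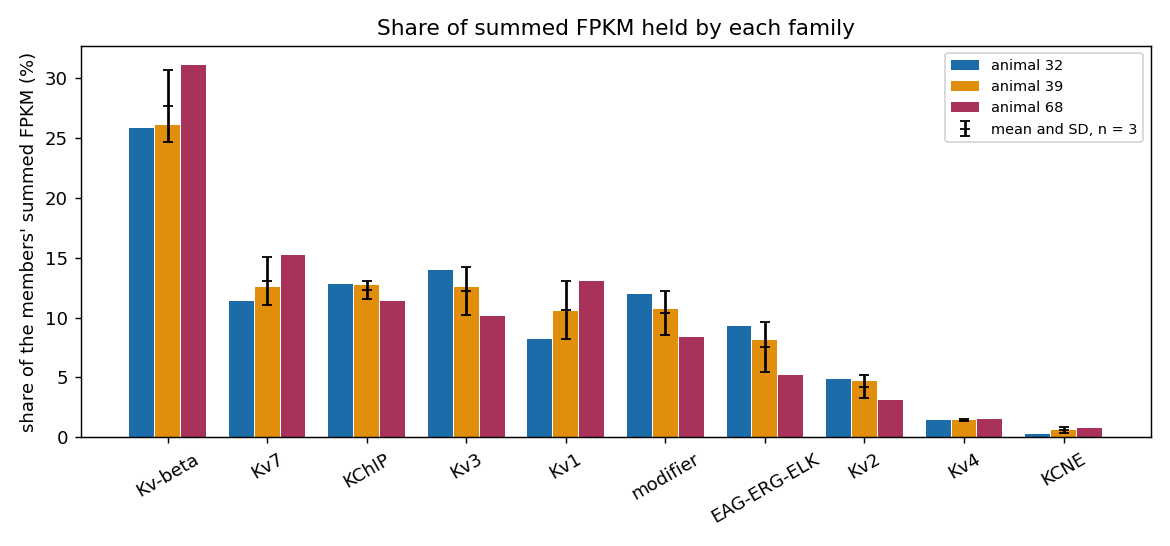
Percent of the members' summed FPKM held by each of the 10 families, 1 bar per animal, with the mean and SD over 3 animals in black. Kv-beta stands apart at 25.8 to 31.1%, and the next 5 families overlap between animals.

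Among the axonal Kv1 pores, Kcna1 and Kcna6 were highest, and Kcna4 was nearly constant between animals. Kcna1, a low-threshold channel of axons and their juxtaparanodes, measured 31.3, 39.8 and 44.4 FPKM in animals 32, 39 and 68. Kcna6, a delayed rectifier, measured 18.4, 24.4 and 31.7. Kcna2, which joins Kcna1 in axonal channels, measured 15.8, 24.9 and 16.0. Both Kcna1 and Kcna6 were lowest in animal 32 and highest in animal 68, whereas Kcna2 was highest in animal 39, and the ranges of Kcna1 and Kcna6, and of Kcna6 and Kcna2, overlapped. Kcna4, the A-type member of the family, measured 6.78, 6.51 and 6.26 FPKM, below every value of Kcna2. Kcna5, known as a delayed rectifier of atrial muscle, measured 0.534, 0.679 and 1.82. It was 3.02-fold higher in animal 68 than in animal 32 on FPKM plus 0.1. Within animals Kcna1 exceeded Kcna2 2.06-fold (log2 ratios 0.98, 0.67 and 1.46) and Kcna6 1.57-fold (0.77, 0.70 and 0.48), and Kcna2 exceeded Kcna4 2.81-fold (1.21, 1.92 and 1.34). All of these ratios had the same sign in 3 of 3 animals.

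For 5 members the locus span equals the gene length used, and the tables then give whole fragment counts (within 0.05 of a whole number in all 3 libraries). Kcna1 rested on 892, 1060 and 1350 fragments, Kcna4 on 351, 315 and 346, Kcna5 on 16, 19 and 58, Kcnf1 on 1679, 1130 and 569, and Kcne5 on 16, 12 and 36. The exact 95% Poisson intervals of Kcna5 were 9.15 to 25.98 fragments in animal 32 and 44.0 to 75.0 in animal 68, and those of Kcnf1 were 1600 to 1761 and 523 to 618. Those intervals do not overlap, but they cover counting error only, and not the spread between dissections or libraries. For Kcna4 they were 315 to 390 and 310 to 384 and overlapped. Kcne5, with 9.15 to 25.98 and 25.2 to 49.8 fragments, overlapped at the edge.

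Of the Kv2 family, the delayed rectifier Kcnb2 measured 3.57, 3.17 and 1.86 FPKM, lowest in animal 68. Its listed locus spans 2558 bases (chromosome 5, 2980046 to 2982603, in the build of the tables), so its level depends on how much of the transcript that model holds.

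The Kv3 channels allow fast repolarisation, and the 3 described here were above 10 FPKM in every animal and lowest in animal 68. Kcnc1 measured 37.1, 31.8 and 21.1 FPKM. Kcnc2 measured 24.2, 24.0 and 15.0, and Kcnc4, an inactivating member, 25.6, 24.4 and 11.3. The ranges of Kcnc1 and Kcnc2, and of Kcnc2 and Kcnc4, overlapped. Kcnc1 exceeded Kcnc2, its usual partner in fast-spiking interneurons, 1.42-fold in 3 of 3 animals (log2 ratios 0.62, 0.40 and 0.50). Beside these levels, the interneuron marker Pvalb stood at 149, 110 and 72.2 FPKM, also lowest in animal 68. Its part in the lower Kv3 levels was not tested.

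Of the Kv4 channels, which carry the dendritic A-type current, Kcnd3 measured 9.53, 9.75 and 8.62 FPKM and Kcnd1 2.95, 3.41 and 3.48. The pair did not overlap, and each was nearly constant between animals. Among the KChIP calcium sensors, Kcnip3, also known as a transcriptional repressor, measured 55.9, 51.4 and 32.7 FPKM. Kcnip4 measured 38.4, 34.4 and 24.99, and Kcnip1 7.56, 5.76 and 3.51. These 3 were all highest in animal 32 and lowest in animal 68. Kcnip2 went the other way, at 11.2, 24.3 and 26.2 FPKM. Consequently Kcnip3 over Kcnip4 was steady at 1.41-fold (log2 ratios 0.54, 0.58 and 0.39), while Kcnip1 over Kcnip2 ran from -0.56 in animal 32 through -2.06 to -2.86 in animal 68, the widest spread of any ratio, and Kcnip2 over Kcnip3 was -2.31, -1.07 and -0.32. The tables place Kcnip2 on the plus strand (chromosome 1, 262892545 to 262916361) and RefSeq, in another build, on the minus strand, so what the model counts is uncertain.

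Among the Kv7 genes, Kcnq5, which contributes to the M-current, measured 30.4, 28.5 and 31.8 FPKM and was nearly constant. Kcnq3, another M-current subunit, measured 7.03, 13.7 and 10.4, lowest in animal 32 and highest in animal 39. The log2 ratios of Kcnq3 to Kcnq5 were -2.10, -1.05 and -1.60, and their ranges did not overlap. Kcnq1, a channel of heart muscle and secretory epithelia, was low, at 0.0129, 0.0550 and 0.915 FPKM. Its order followed that of the choroid plexus marker Ttr, at 8.36, 615 and 7264 FPKM, and the part of choroid plexus tissue in it was not tested.

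Every EAG, ERG and ELK gene with a mean of at least 1 FPKM was lower in animal 68 than in animal 32. The ELK gene Kcnh3 measured 39.4, 35.7 and 16.1 FPKM, the EAG gene Kcnh1 18.5, 15.0 and 9.74, and the ERG gene Kcnh2, best known from cardiac repolarisation, 10.7, 10.5 and 7.05. Kcnh4 (ELK) measured 5.43, 3.63 and 2.50, Kcnh7 (ERG) 3.73, 5.30 and 2.31, and Kcnh5 (EAG) 2.26, 3.01 and 0.791. Kcnh6 (ERG) stood near the detection level, at 1.304, 0.765 and 0.954. One gene led in each subgroup: Kcnh3 exceeded Kcnh4 7.53-fold, Kcnh1 exceeded Kcnh5 7.52-fold and Kcnh2 exceeded Kcnh7 2.54-fold, each in 3 of 3 animals. The log2 ratios were 2.84, 3.26 and 2.64 for the ELK pair, 2.98, 2.28 and 3.46 for the EAG pair and 1.49, 0.98 and 1.57 for the ERG pair. The SD of the log2 ratio was below that of both genes for the ELK pair (0.32, against 0.70 and 0.54). The same held narrowly for the ERG pair (0.32, against 0.34 for Kcnh2 and 0.58 for Kcnh7). For the EAG pair it was 0.59, against 0.47 for Kcnh1 and 0.95 for Kcnh5. In each pair both genes were lowest in animal 68.

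The modifier subunits included members that differed between animals in opposite directions. Kcnf1 measured 37.9, 27.3 and 12.1 FPKM, Kcnv1 24.1, 18.4 and 11.2, and Kcns1 11.9, 9.73 and 4.01, all highest in animal 32 and lowest in animal 68. Kcng2 measured 5.19, 7.81 and 11.1 and Kcng4 1.96, 3.01 and 4.40, with the reverse order. Kcns2 (9.94, 12.1 and 8.17), Kcng1 (7.79, 11.8 and 8.93) and Kcns3 (6.85, 7.20 and 4.40) had no such order, and all neighbours from Kcnf1 down to Kcng4 overlapped. Kcns1 over Kcns2 changed sign, at 0.26, -0.31 and -1.01, while Kcns2 exceeded Kcns3 1.64-fold in every animal. Kcnv1 exceeded Kcnv2 by 6.37 on the log2 scale with the pseudocount of 0.1 and by 7.44 without one, since Kcnv2 is near 0.

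Kcnab2, a cytoplasmic subunit that binds Kv1 channels, was the highest member by a wide margin. It measured 170.0, 188 and 188 FPKM, ranked 267 among all genes and held 19.2 to 24.5% of the members' summed FPKM. Kcnab1, which can make Kv1 channels inactivate, measured 36.8, 37.3 and 43.8. Kcnab3 measured 21.2, 12.6 and 6.54, so that the gap between Kcnab2 and Kcnab3 widened from 3.00 on the log2 scale in animal 32 to 3.90 in animal 39 and 4.83 in animal 68. Kcnab2 over Kcnab1 was steady, at 4.64-fold, with log2 ratios of Kcnab1 to Kcnab2 of -2.21, -2.33 and -2.10. Kcna2 stood below Kcnab2 9.81-fold. The KCNE peptides, single-span membrane proteins, were low: Kcne4 measured 1.15, 4.42 and 2.70 FPKM and Kcne5 1.57, 1.26 and 3.31.

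Across the 27 listed pairs of related genes, 23 could be computed, and 21 had the same direction in 3 of 3 animals, 15 of them with a mean above 2-fold. The share over pairs of other genes was not computed, so these counts have no background and describe the listed pairs only. Of the 2 pairs with mixed signs, Kcns1 over Kcns2 is described above. The exact two-sided sign-flip permutation test over 3 animals cannot give less than p = 0.25, so no ratio can pass 0.05 and the SD of the ratio is the guide. That SD had a median of 0.33 and was highest, at 1.17, for Kcnip1 over Kcnip2. Ratios also depend on each gene model and on how uniquely its fragments map, which the 3 libraries share.

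**Figure D3:**
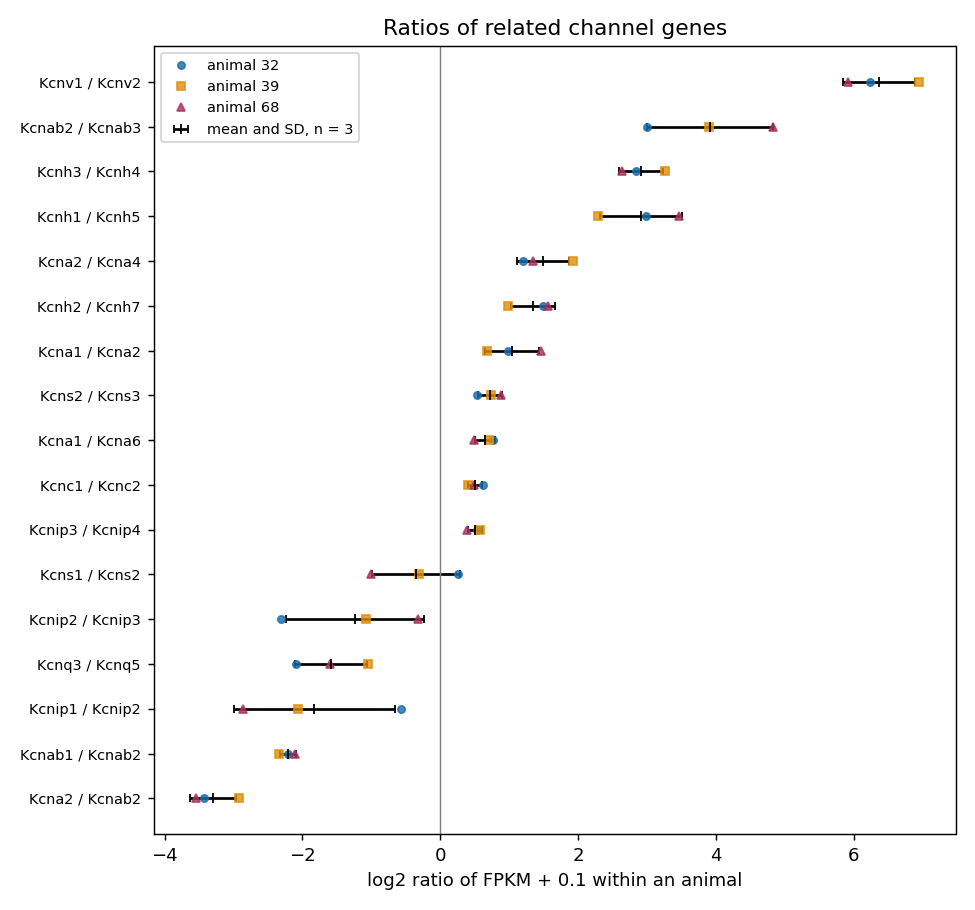
Log2 ratio of FPKM plus 0.1 for 17 pairs of related genes; coloured points are the animals and black bars the mean and SD (n = 3). Kcnip3 / Kcnip4 and Kcnc1 / Kcnc2 are tight, while both ratios with Kcnip2 spread over about 2 log2 units.

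How far the members differed between animals was asked for each pair of animals, for the 41 members with a mean of at least 1 FPKM. With 1 library per animal there is no test, and a gene was called when log2(FPKM + 0.1) differed by more than 1, that is 2-fold. Between animals 32 and 68, 9 members (22.0%) were lower in animal 68, where 3.05% of all 13378 genes were, and 6 (14.6%) were higher, where 9.77% were. The lower members were Kcnab3 (log2 difference -1.68), Kcnf1 (-1.65), Kcns1 (-1.55), Kcnh5 (-1.40), Kcnh3 (-1.28), Kcnc4 (-1.17), Kcnv1 (-1.097), Kcnh4 (-1.09) and Kcnip1 (-1.08). The higher members were Kcna5 (1.59), Kcnip2 (1.22), Kcne4 (1.16), Kcng4 (1.13), Kcng2 (1.09) and Kcne5 (1.03). The median difference of the members was -0.29, and that of all genes tested was 0.07. Between animals 39 and 68, 6 members were lower in animal 68 (14.6%, against 1.97% of all genes), namely Kcnc4, Kcnf1, Kcnh3, Kcnh5, Kcnh7 and Kcns1, and 2 were higher, Kcna5 and Kcne5 (4.88%, against 4.18%). Animals 32 and 39 differed in few members: Kcne4 and Kcnip2 were higher in animal 39 (4.88%, against 2.59%) and 0 were lower, where 0.553% of all genes were. Animal 32 serves in 2 of these comparisons, as do the other animals, so the counts are not independent of each other.

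**Figure D4:**
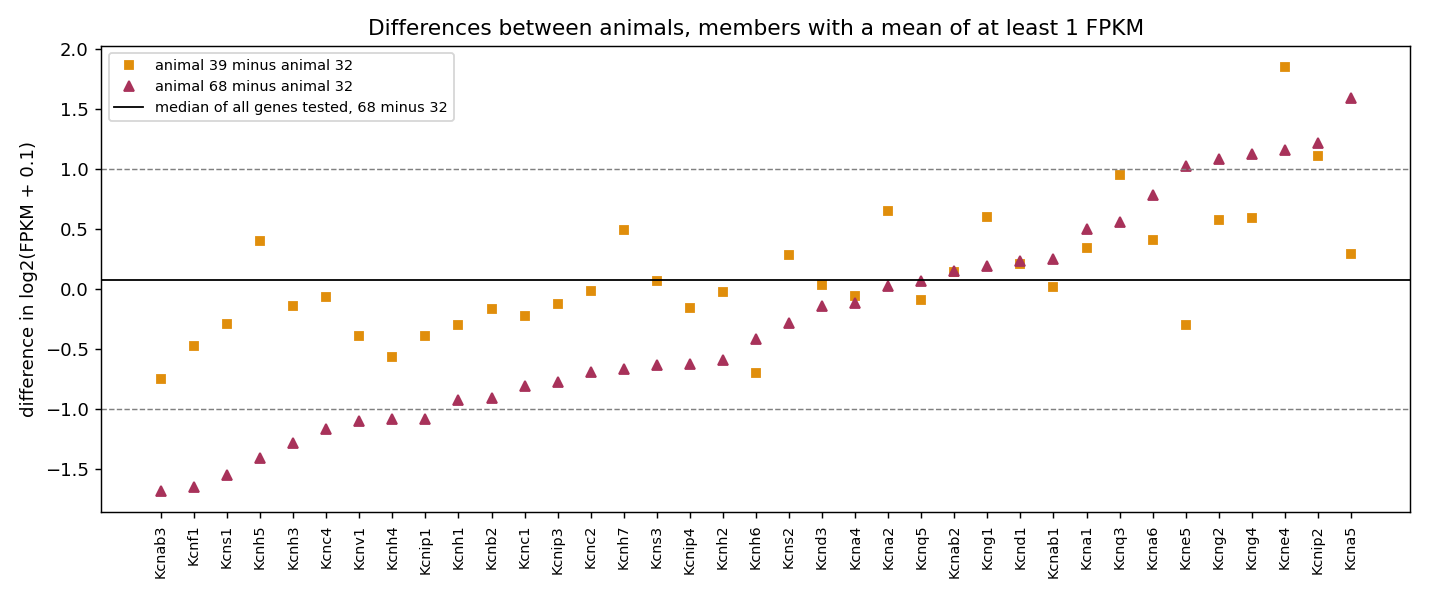
Difference in log2(FPKM + 0.1) from animal 32 for 37 members with a mean of at least 1 FPKM, for animal 68 (triangles) and animal 39 (squares), ordered by the former; dashed lines mark 2-fold and the black line the median of all genes for animal 68. On the left 9 members lie below -1 in animal 68, and on the right 6 lie above 1.

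By family, the difference of animal 68 from animal 32 was below 0 for 7 of 7 EAG, ERG and ELK genes (median -0.92), 4 of 4 Kv3 genes (-0.75), 2 of 2 Kv2 genes and 3 of 4 KChIP genes (-0.70). It was above 0 for 4 of 4 Kv7 genes (median 0.28), 4 of 5 Kv1 genes (0.50), 2 of 3 Kv-beta genes (0.15) and 2 of 2 KCNE genes (1.095). The modifiers were mixed, with 5 below and 3 above 0 (median -0.45), and so were the Kv4 genes, with 1 on each side. Under scaling by the median of ratios 3 of 5 Kv1 genes lay above 0, and under equal totals without mitochondrial genes 2 of 4 Kv1 and 3 of 4 Kv7 genes did. Over all genes tested, 42.9% lay below 0 without any such scaling. The 6 neuron markers summed to 0.51 less on the log2 scale in animal 68 than in animal 32, and the oligodendrocyte markers to 1.43 more. Their part in the members' differences was not tested. In a scaling by the summed neuron markers, chosen after the data were seen, 3 members were over 2-fold lower in animal 68 (where 1.06% of all genes were), Kcnab3 (-1.18), Kcnf1 (-1.14) and Kcns1 (-1.05), and 9 were higher (where 22.5% of all genes were), the 6 above with Kcna1 (1.01), Kcna6 (1.29) and Kcnq3 (1.06). That scaling fixes only the markers' sum, and single markers were unevenly lower, with Snap25 going from 1206 to 685 FPKM and Stmn2 from 195 to 170 FPKM between animals 32 and 68. It turned the median difference of the members from -0.29 to 0.21 and moved that of all genes to 0.58. The members' median stood at -0.37 relative to all genes before and after. A single factor per library moves all genes nearly alike, so that gap could hardly change and is no check. Under the neuron-marker scaling the median of the modifiers turned to 0.04, with 4 genes on each side of 0. Above 0 lay 1 of 7 EAG, ERG and ELK genes, 1 of 4 Kv3, 2 of 2 Kv4 and 5 of 5 Kv1 genes. The share of all genes above 0 was not computed in that scaling. Their median of 0.58 was itself above 0, so a gene above 0 there is no trait of a family.

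The median SD of log2(FPKM + 0.1) over the 3 animals was 0.42 for the members and 0.20 for all 13378 genes, a difference that was not tested. Kcna4, at an SD of 0.056, was the most constant member, and Kcnq5 (0.079) and Kcnab2 (0.085) were close to it. Kcnh5 (0.95), Kcne4 (0.94) and Kcnf1 (0.85) were the least constant. Without animal 68 the median SD of the members, over the other animals, was 0.20. The median over all genes was not computed without animal 68, so this value cannot be set against the 0.20 given above.

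Some members neighbour each other in the genome. On chromosome 4 in the build of the tables, Kcna5 (159077195 to 159079003), Kcna1 (159190804 to 159192526) and Kcna6 (159253934 to 159287193) lie in a row on the minus strand, with no other listed gene between them, and had means of 1.01, 38.5 and 24.8 FPKM. Kcna5 did not overlap with the other two, whose ranges overlapped. All 3 were highest in animal 68 and lowest in animal 32. On chromosome 2, Kcna2 (209839395 to 209843548; mean 18.9 FPKM) lies 77.0 kb from Kcna10, listed at 0, and Kcna10 lies 288 kb from Kcnc4 (mean 20.4 FPKM). Kcnc4 was over 2-fold lower in animal 68 than in animal 32, while Kcna2 differed by 0.02 on the log2 scale.

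Of 21 genes listed for their known binding to, placing of or control over these channels, 20 were found. All 20 measured at least 1 FPKM in every animal, where 40.7% of all genes in the tables did. The Kv4 partner Dpp6 measured 83.6, 85.1 and 81.5 FPKM, while its relative Dpp10 measured 40.0, 30.1 and 15.5 and was the only one past 2-fold between animals 32 and 68 (log2 difference -1.36). Amigo1, which accompanies Kv2 channels, measured 36.6, 31.9 and 22.2 FPKM, lowest in animal 68 as was Kcnb2, and the Kv2 anchors Vapa (70.7, 69.8 and 65.3) and Vapb (49.7, 50.1 and 50.7) were nearly constant. At the juxtaparanode, the adhesion protein Cntn2 measured 29.4, 38.3 and 57.2 FPKM. Its order of animals was that of Kcna1 and also that of the summed oligodendrocyte markers (3124, 4809 and 8390), and the part of either was not tested. The other juxtaparanode genes listed, Adam22 (16.6, 27.9 and 17.3) and Epb41l3 (38.7, 30.6 and 24.9), did not have that order. The Kv1-associated proteins Lgi1 (52.6, 55.0 and 54.9) and Adam23 (36.2, 35.6 and 37.1) and the Kv7 anchor Ank3 (23.5, 26.3 and 25.2) differed little. Chrm1, the muscarinic receptor that suppresses the M-current, measured 69.6, 66.8 and 48.3 FPKM. Of the 20, 12 were below 0 and 8 above 0 in the difference of animal 68 from animal 32, with a median of -0.10. Over all 13378 genes tested, 42.9% lay below 0, with a median of 0.07. Past 2-fold, 3.05% of those genes were lower in animal 68 and 9.77% were higher.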

How the data were processed

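Messenger RNA of motor cortex from 3 untreated male rats was sequenced, 1 library per animal. The deposited values are FPKM, which the authors computed by counting and normalizing fragments for each gene, per the labels. HISAT2 2.0.4, StringTie 1.3.0 and the build Rnor_6.0 are named, without role, per the submitters' processing notes. Strandedness and annotation release: not given in the sources used here. Therefore overlapping genes and near-identical copies are uncertain. No value above 0 was shared between libraries.

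Members were found by symbol, with no expression value in the rule. That rule, the gene lists, pairs and tests were nevertheless chosen with earlier results of these data known. Depth was recovered from loci of up to 400 bases, where FPKM is a whole multiple of 1 fragment, and refined on loci of up to 3000 bases; 88.8, 88.7 and 88.6% of detected short genes then lay within 0.02 of a whole number, partly by construction. Fragments from PCR are not independent molecules. Values were analysed as log2(FPKM + 0.1), with a mean of at least 1 FPKM for differences between animals, called past 2-fold without a test. Pairs were tested within animals by an exact sign-flip test. Values in every animal are given for up to 5 members per family with a mean of at least 1 FPKM, for members past 2-fold and for genes of the listed pairs; Kcnh6 and Kcnq1 were added after their values were seen, as were the promoters shown. Proteins planned for display were not used here. Values of a few members are not reported here. Those members still enter the counts, shares and medians. Calls and depth recovery were tested on simulated data. Alternatives changed the pseudocount, scaling, filter, fold, detection level and summary, and left out each animal. Python 3.11.15, pandas 2.3.3, numpy 2.4.6, scipy 1.17.1 and matplotlib 3.10.9 were used.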

Additional observations from a re-analysis of the deposited data

How the results depend on the processing

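No paired analysis was possible because there is only 1 group. The count of members at 1 FPKM in every animal and the count of pairs with 1 direction stayed within 1.5 times under every alternative run for them, and no ratio reversed. Taking summed log2(FPKM + 1) in place of FPKM gave shares of 11.01% for Kv-beta, 17.9% for modifiers, 12.97% for EAG-ERG-ELK, 3.63% for Kv4 and 2.35% for KCNE. Without Kcnab2, the shares were 7.89% for Kv-beta, 16.7% for Kv7, 15.6% for KChIP, 15.5% for Kv3, 13.6% for Kv1, 13.1% for modifiers, 5.35% for Kv2 and 1.88% for Kv4.

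Counts of members past 2-fold moved as follows, each with the share of all genes tested. With a pseudocount of 1, 1 member was higher in animal 68 than in 32 (6.52% of all genes) and 0 were higher than in 39 (2.45%). Scaling to equal totals without mitochondrial genes left 1 higher in 68 than in 39 (3.7%). Without the filter, 3 were lower in 39 than in 32 (3.39%) and 4 higher in 68 than in 39 (7.95%). At a mean of 5 FPKM, 1 was higher in 39 than in 32 (1.02%), 2 in 68 than in 32 (5.99%) and 0 in 68 than in 39 (1.99%). At 1.5-fold, 6 were higher (8.1%) and 2 lower (2.23%) in 39 than in 32, and 19 and 17 were lower in 68 than in 32 (7.94%) and 39 (6.53%). Scaled to neuron markers, 3 and 1 were lower in 68 than in 32 (1.06%) and 39 (0.811%). The members' median difference of 68 from 32 turned to 0.21 in that scaling and was -0.44 at a mean of 5 FPKM. Fewer genes enter under the stricter filter; the cause of the other changes was not tested. All 9 members lower in 68 than in 32 kept that call under the pseudocount of 0.01 and the 3 planned scalings. The 6 higher members all kept theirs under the pseudocount of 0.01 and equal totals. Only 4 did under equal totals without mitochondrial genes (Kcna5 and Kcne5 lost) and 5 under the median of ratios (Kcne5 lost). Dropping the filter or lowering the fold to 1.5 cannot lose a call, so those settings are no check. Of the 9 lower members, the call was kept by 6 with a pseudocount of 1, by 7 at a mean of at least 5 FPKM and by 3 when scaled to neuron markers. Of the 6 higher members, it was kept by 1, 2 and 6 in the same settings. The median SD of members ran from 0.203 (without animal 68) to 0.545 with 1 animal left out. Low genes such as Kcna5 and Kcne5 are limited by depth, at 12 to 58 fragments.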
